A study of Homo sapiens with 6 samples.

Results

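The nuclear-encoded subunit genes of the 5 oxidative phosphorylation complexes were compared between BR-shCON and BR-shSPANXB1 cells. Members were chosen by gene symbol alone: the NDUFA, NDUFB, NDUFC, NDUFS, NDUFV, UQCR, COX4 to COX8, SDHA to SDHD and ATP5 families together with CYC1. This took 81 of the 16570 genes in the table, of which 78 had a mean FPKM (fragments per kilobase of transcript, scaled to the mapped fragments of the sample) of at least 1 and were tested. Complex I held 36 of the tested genes, complex II 4, complex III 9, complex IV 11 and complex V 18. NDUFA4 was counted in complex IV, since its protein is a cytochrome c oxidase subunit despite its symbol, and ATP5IF1, which the symbol pattern includes in complex V, encodes an inhibitor of the ATP synthase.

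BR cells are a brain-metastatic derivative of MDA-MB-231, a human triple-negative breast cancer line. Both groups were stable lines made by lentiviral transduction and puromycin selection and grown in DMEM with fetal bovine serum. BR-shCON cells carried a control vector, and BR-shSPANXB1 cells an shRNA against SPANXB1, a cancer-testis gene of the SPANX family on the X chromosome. Each group had 3 samples, and the labels name 1 knockdown construct, so that the effect of silencing SPANXB1 and any other difference between the selected lines cannot be told apart. The extraction text in the labels names MDA-MB-231 and its brain-seeking variant for every sample and not the knockdown, and groups were taken from the sample titles and cell types.

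Oxidative phosphorylation takes place in the inner mitochondrial membrane. Complexes I and II pass electrons from NADH and succinate to coenzyme Q, complex III passes them to cytochrome c, and complex IV to oxygen; the proton gradient built on the way drives ATP synthesis by complex V. Apart from complex II, each complex joins subunits made in the cytosol from nuclear genes with subunits encoded by mitochondrial DNA, which were not analysed here.

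SPANXB1 stood at 444.87, 562.88 and 515.45 FPKM in BR-shCON cells against 232.16, 259.73 and 247.88 FPKM in BR-shSPANXB1 cells, a log2 fold change of -1.11 (edgeR adjusted p = 1.8e-14), so its RNA remained in every knockdown sample. MMP1, an interstitial collagenase, fell by 0.68 on the log2 scale (adjusted p = 1.8e-13). Counts summed to 16294462 to 16666167 per sample. VIM (2187 FPKM in BR-shCON) and CD44 (204.7 FPKM), which mark mesenchymal breast cancer lines, were high, whereas the hormone receptor genes ESR1 and PGR stood at 0.697 and 0.0833 FPKM. The epithelial keratin genes KRT8 and KRT18 were high as well, at 179.1 and 254.5 FPKM in BR-shCON, as was EGFR at 147.4 FPKM. ERBB2, the HER2 gene, stood at 12.41 FPKM. KRT8 was called higher in BR-shSPANXB1 cells (log2 fold change 0.193, edgeR adjusted p = 0.00095). Of the markers of other cell types, PTPRC (leukocytes), CDH5 and VWF (endothelium), GFAP (glia) and PDGFRB (fibroblasts) had at most 3, 1, 7, 4.98 and 9 counts in any sample. CD14 and RBFOX3 each had 8 to 18 counts, PECAM1 46 to 85, ACTA2 40.16 to 77 and COL1A1 63 to 105. PECAM1 and ACTA2 were the only ones of these to be tested, and neither passed (adjusted p = 0.25 and 0.7). In these bulk RNA samples, fewer cells expressing a gene and less RNA per cell cannot be told apart.

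Few of the subunit genes differed between the groups, and the differences were small. At an adjusted p under 0.05, NDUFA8 was higher in BR-shSPANXB1 cells and NDUFB6, NDUFB5 and ATP5MC3 were lower, which is 4 of 78 or 5.13% of the members, while 74 did not pass. Over all 11439 genes tested, 13.8% were called, 6.82% higher and 6.98% lower. None of the 78 met the criteria of the study, which add to the adjusted p a log2 fold change beyond 0.59 in size and more than 1 FPKM in controls, in edgeR, DESeq2 or limma, against 0.621% of all genes tested, although 14 members (17.9%) had an unadjusted edgeR p under 0.05, against 26.9% of all genes. At a mean FPKM of at least 5, all 78 members were still tested and the same 4 called, beside 14.3% of all genes.

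The log2 fold changes of the subunit genes ran from -0.26 to 0.22 with a median of -0.028 and quartiles of -0.095 and 0.045. Over all genes tested the median was 0 and the quartiles -0.076 and 0.079, so the middle of the distribution was about as wide, while the SD (0.084 for members, 0.178 for all genes) also counts the extremes of -2.67 and 6.68. Of the 78, 49 (62.8%) had a negative estimate and 29 a positive one, while 49.9% of all genes tested had a negative one. The 95% interval of every member lay inside the fold criterion of 0.59 in both directions, and for 74 of them inside 0.3. The widest interval reached 0.2 to either side of its estimate. Changes of the size that the criterion asks for therefore fell outside the intervals of all 78 genes, whereas small ones could not be told from 0 for the 64 genes whose interval held it.

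**Figure D1:**
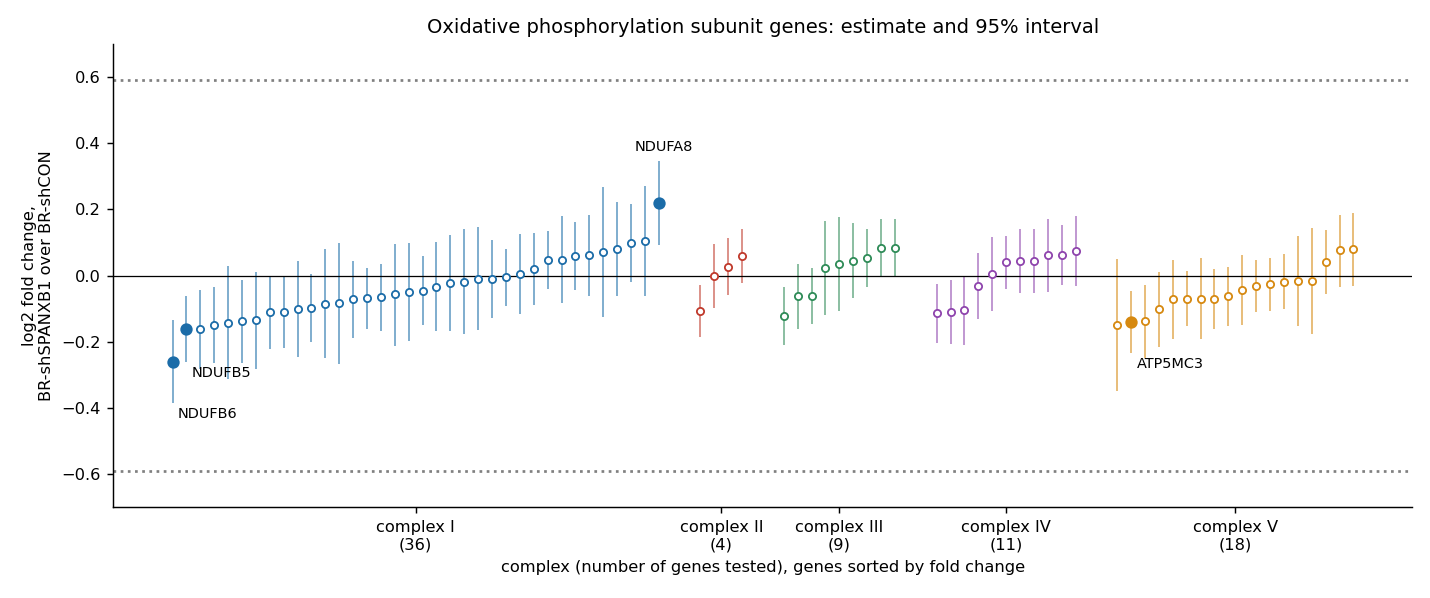
Log2 fold change of each tested subunit gene (BR-shSPANXB1 over BR-shCON, y axis) with its 95% interval, grouped by complex and sorted along the x axis; filled points passed an adjusted p under 0.05 and dotted lines mark the fold criterion of 0.59. NDUFA8 lies above 0 and NDUFB6, NDUFB5 and ATP5MC3 below it, and all 78 intervals lie between the dotted lines.

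Non-overlap of the groups was also less frequent among members than over all genes, but its directions were uneven. CPM are counts scaled to a common library size, here with trimmed mean of M values factors. Non-overlap means that the 3 samples of 1 group lay wholly above or below those of the other in CPM. It held for 19 members (24.4%), compared with 29.8% of all genes tested. Of these members 3 were higher and 16 lower in BR-shSPANXB1 cells, while over all genes 1718 were higher and 1695 lower. Same-numbered samples of the groups deviated together, and edgeR was also run with a replicate block. Over all genes the block called 25.7%, 1452 of them higher and 1483 lower. Of the 78 members it called 13 (16.7%), 2 higher and 11 lower. Besides the 4 genes above, these were UQCRC1, which was higher, and NDUFS3, NDUFA13, NDUFA11, SDHD, UQCRH, COX5A, COX7C and ATP5MC1, which were lower.

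Summed over all members, expression was 6300, 6333 and 6274 CPM in BR-shCON cells against 6134, 6334 and 6144 CPM in BR-shSPANXB1 cells. The groups overlapped, since BR-shSPANXB1 replicate 2 stood as high as the highest control sample. Members took 0.617% to 0.633% of all counts in a sample. For complex I the sums were 1658, 1676 and 1653 CPM against 1617, 1652 and 1597 CPM, and for complex V 2087, 2091 and 2105 CPM against 2005, 2075 and 2043 CPM. In CPM every knockdown sample of both complexes lay below every control sample, in complex I by a narrow margin. Summed FPKM overlapped and had the higher mean in BR-shSPANXB1 cells. It was 3602 ± 110.1 in BR-shCON against 3631 ± 110.9 in BR-shSPANXB1 cells for complex I, and 3238 ± 109.6 against 3276 ± 120.3 for complex V (SD, n = 3). Over all members it was 11290 ± 355 against 11490 ± 340.2. The sums of complex II (555.8 ± 11.5 against 551.5 ± 4.97 CPM, SD, n = 3), complex III (901.2 ± 11.8 against 898.4 ± 25.8) and complex IV (1089 ± 19.7 against 1091 ± 26.4) differed by less than their SDs.

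Complex I, the NADH dehydrogenase, held 3 of the 4 called genes, all of them accessory subunits, which surround the catalytic core. The called share was 8.33% of its 36 genes and 10.3% of its 29 accessory genes, both below the 13.8% of all genes tested. The 36 genes had a median log2 fold change of -0.048, with 25 negative and 11 positive estimates. The 7 core subunit genes, which as a group are conserved from bacteria and hold the flavin and iron-sulfur clusters, had a median of -0.009, and edgeR called none (1 at an unadjusted p under 0.05). Among the 29 accessory genes the median was -0.05, with 1 called higher and 2 lower. DESeq2 and limma on log2(FPKM + 0.1) called no core gene either, but 7 genes are too few to compare with the share of all genes.

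NDUFB6, an accessory subunit of the membrane arm, gave the lowest estimate of all members. The gene lies on the minus strand at chr9:32552999-32573184 (GRCh38). Its values were 34.6, 32.6 and 35.0 CPM in BR-shCON cells against 29.1, 27.7 and 28.6 CPM in BR-shSPANXB1 cells. All 3 knockdown samples were low, and the highest of them lay below the lowest control. The log2 fold change was -0.26 (95% interval -0.39 to -0.13, adjusted p = 0.0042), or 16.5% lower. An exact permutation test of log2(FPKM + 0.1) gave p = 0.1 (two-sided), the smallest that 3 samples against 3 allow. NDUFB6 was called in each of the 14 alternatives as well.

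NDUFA8, an accessory subunit with paired cysteine motifs that faces the intermembrane space, was the only member called higher. It lies on the same chromosome as NDUFB6, at chr9:122144058-122159819 on the minus strand. It measured 37.3, 40.0 and 40.7 CPM in BR-shCON cells against 41.7, 49.1 and 46.6 CPM in BR-shSPANXB1 cells. Knockdown replicates 2 and 3 were high, while replicate 1 lay just above the highest control. The log2 fold change was 0.22 (95% interval 0.093 to 0.35, adjusted p = 0.016), and the adjusted p rose to 0.13 when BR-shSPANXB1 replicate 2 was left out, 0.081 when BR-shCON replicate 1 was, and 0.057 when BR-shSPANXB1 replicate 3 was.

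NDUFB5, another accessory subunit of the membrane arm (chr3:179604690-179627647, plus strand), was measured at 80.7, 84.3 and 83.4 CPM in BR-shCON cells against 79.0, 70.3 and 72.7 CPM in BR-shSPANXB1 cells. Knockdown replicates 2 and 3 were low, and replicate 1 lay just below the lowest control. The log2 fold change was -0.16 (95% interval -0.26 to -0.063, adjusted p = 0.024). DESeq2 gave an adjusted p of 0.06, and without BR-shSPANXB1 replicate 2 the edgeR value was 0.15. The call of NDUFB5 was also lost in every limma fit and without BR-shCON replicate 2 or BR-shSPANXB1 replicate 3.

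**Figure D2:**
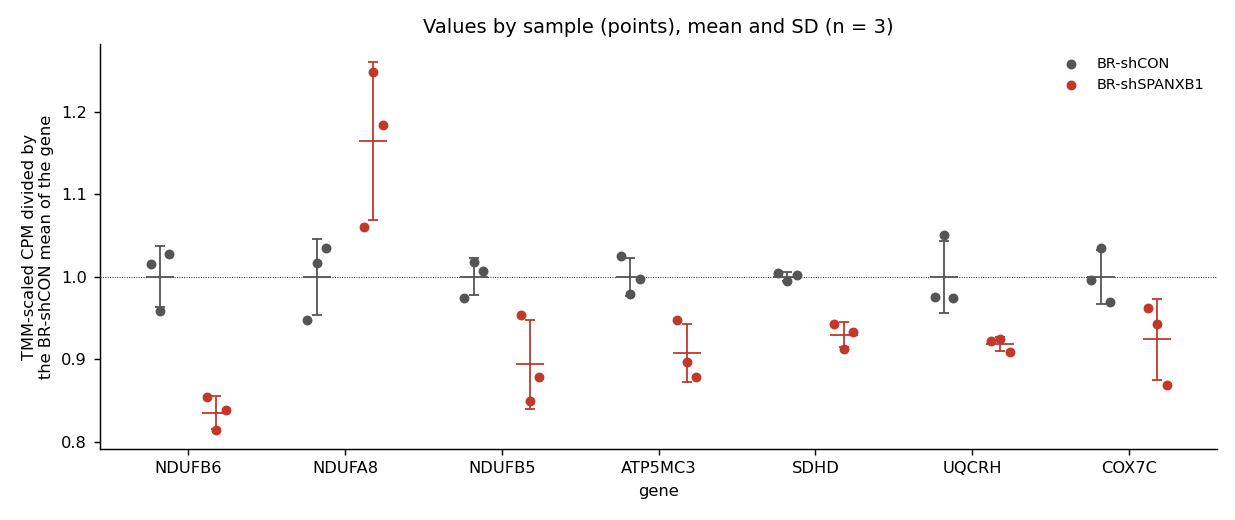
CPM of each sample divided by the gene's BR-shCON mean (y axis) for the 4 called genes and for the gene of smallest p in complexes II, III and IV (x axis), with points for samples and bars for mean and SD (n = 3). In CPM the groups do not overlap in any of the 7 genes, and NDUFA8 alone is higher in BR-shSPANXB1 cells. In FPKM the groups overlap for UQCRH and COX7C.

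The other complex I genes did not pass the test. The core subunit gene NDUFS3 had a log2 fold change of -0.16 (adjusted p = 0.064, and 0.012 with the replicate block). Of the accessory genes, NDUFA13 was at -0.15 (adjusted p = 0.077, and 0.011 with the block) and NDUFA11 at -0.14 (0.14, and 0.046 with the block). Both encode membrane-embedded subunits. NDUFS1, the largest core subunit, gave -0.005 with a 95% interval of -0.091 to 0.08, among the narrowest of the complex.

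Complex II, succinate dehydrogenase, shares its catalytic subunits with the tricarboxylic acid (TCA) cycle and has no mitochondrially encoded subunit. None of its 4 genes was called by edgeR, DESeq2 or limma, and 1 had an unadjusted p under 0.05. SDHD, a membrane anchor (chr11:112086773-112120013, plus strand), stood at 185.6, 183.8 and 185.1 CPM in BR-shCON cells against 174.2, 168.7 and 172.5 CPM in BR-shSPANXB1 cells. The groups were well apart for so small a difference, because the controls lay close to each other. Its log2 fold change was -0.11 (95% interval -0.18 to -0.027), with an adjusted p of 0.064, and 0.003 with the replicate block. SDHA, the flavoprotein, was at 0.059 (adjusted p = 0.37), SDHB, the iron-sulfur subunit, at -0.001 (0.99) and the second anchor gene SDHC at 0.027 (0.73).

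Complex III, the cytochrome bc1 complex, had 9 tested genes, whose median log2 fold change was 0.034, and no call by edgeR, DESeq2 or limma (1 gene at an unadjusted p under 0.05). UQCRH, the hinge protein that contacts cytochrome c1 (chr1:46303631-46316776, plus strand), had 104.3, 112.4 and 104.2 CPM in BR-shCON cells against 98.7, 98.9 and 97.3 CPM in BR-shSPANXB1 cells. In CPM every knockdown sample was lower, whereas in FPKM the values were 384.23, 445.02 and 406.8 against 384.36, 395.44 and 393.47 and overlapped (exact permutation p = 0.4). Its log2 fold change from counts was -0.12 (95% interval -0.21 to -0.033, adjusted p = 0.06, and 0.0043 with the replicate block). The genes of the 2 core proteins leaned the other way, UQCRC1 at 0.084 (adjusted p = 0.2, and 0.033 with the block) and UQCRC2 at 0.083 (0.21, and 0.066 with the block). CYC1, cytochrome c1, was at -0.061 (0.37), and UQCRFS1, the Rieske iron-sulfur protein, at 0.054 (0.46).

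Complex IV, cytochrome c oxidase, had 11 tested genes with a median of 0.04, 7 of them positive. Neither edgeR, DESeq2 nor limma called any, and 2 had an unadjusted edgeR p under 0.05. COX7C (chr5:86617904-86620962, plus strand) measured 142.8, 148.3 and 139.0 CPM in BR-shCON cells against 137.9, 135.1 and 124.5 CPM in BR-shSPANXB1 cells, and only the third knockdown sample stood far below the controls. In FPKM its values were 399.47, 437.29 and 404.94 against 404.8, 402.65 and 374.18 and overlapped (exact permutation p = 0.4). The log2 fold change of COX7C from counts was -0.11 (95% interval -0.20 to -0.025, adjusted p = 0.081, and 0.003 with the replicate block). COX5A, a subunit on the matrix side of the complex, gave -0.11 (0.13, and 0.023 with the block), and COX4I1 0.062 (0.40).

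Complex V, the ATP synthase, had 18 tested genes, 15 of them with a negative estimate and a median of -0.054. Only ATP5MC3 was called. It is 1 of 3 genes for subunit c, which forms the rotating ring, and lies at chr2:175176258-175184607 on the minus strand. Values were 84.6, 80.8 and 82.4 CPM in BR-shCON cells against 78.2, 74.1 and 72.6 CPM in BR-shSPANXB1 cells. The knockdown samples were all lower, and the log2 fold change was -0.14 (95% interval -0.24 to -0.045, adjusted p = 0.042). This call was lost in 8 of the alternatives, with an adjusted p of up to 0.14 when single samples were left out.

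The 3 subunit c genes encode the same mature protein with different import sequences. ATP5MC1 gave nearly the same estimate as ATP5MC3, -0.14 (adjusted p = 0.088, and 0.023 with the replicate block), and ATP5MC2 gave -0.044 (0.64). On the FPKM scale, which is per transcript length, ATP5MC1 was at 169.5 ± 2.94 in BR-shCON cells against 160.0 ± 8.37 in BR-shSPANXB1 cells, ATP5MC2 at 149.1 ± 3.39 and 149.2 ± 5.04, and ATP5MC3 at 35.3 ± 0.740 and 32.4 ± 1.31 (SD, n = 3). The order depends on the implied lengths (290, 353 and 2320 bases): in CPM, ATP5MC3 was the highest in BR-shCON cells, at 82.6 against 50.3 for ATP5MC1 and 53.6 for ATP5MC2. The catalytic subunit genes ATP5F1A and ATP5F1B, the latter with the most counts of any member at 582.1 to 629.5 CPM, had fold changes of -0.026 (adjusted p = 0.73) and -0.030 (0.67).

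Levels differed far more between members than between the groups. Median FPKM was 79.1 for complex I, 98.7 for complex II, 44.9 for complex III, 272 for complex IV and 162 for complex V. The highest member of each was NDUFS5 (396 ± 15.1 FPKM in BR-shCON cells, 400.7 ± 33.5 in BR-shSPANXB1 cells), SDHD (175.0 ± 0.802 and 165.3 ± 2.93), UQCRH (412 ± 30.7 and 391.1 ± 5.91), COX6A1 (753.3 ± 21.9 and 804.6 ± 37.1) and ATP5MK (436.7 ± 44.6 and 451.3 ± 49.3). Comparisons between genes rest on the transcript length that the authors used. In CPM the complexes stood in another order. Their median log2 CPM, averaged over the BR-shCON samples, was 7.174 for complex II, 6.635 for III, 6.366 for IV, 5.929 for V and 5.304 for I. The length implied by the ratio of count to FPKM was 484 bases for the median member, against 2850 over all genes tested, and ran from 45.4 for ATP5ME and 54.4 for NDUFB1 to 11400 for NDUFS1. ATP5ME, at 243.3 FPKM in BR-shCON, rested on no more than 12.5 CPM.

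**Figure D3:**
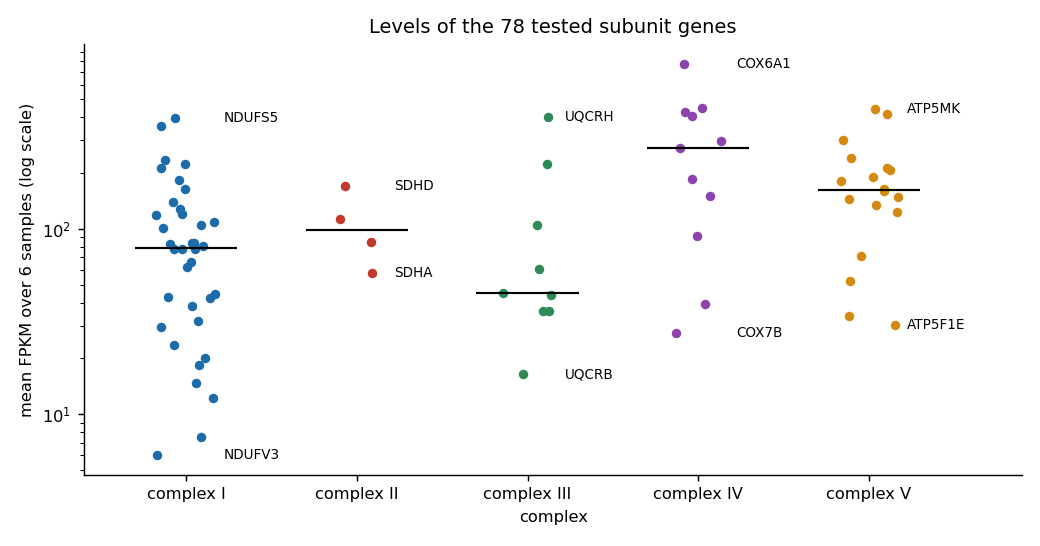
Mean FPKM over the 6 samples (y axis, log scale) of each of the 78 tested subunit genes by complex (x axis), with black lines for the medians and names at the highest and lowest member. On this scale, which depends on transcript length, complex IV has the highest median, 272 FPKM, and COX6A1 the highest value.

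Several complex IV subunits exist as tissue isoforms, and the tested ones were the widely expressed forms. COX4I1 was at 411.0 ± 10.7 FPKM in BR-shCON cells against 439.1 ± 32.7 in BR-shSPANXB1 cells, COX6B1 at 265.1 ± 18.8 and 278.0 ± 5.55, and COX7A2 at 283.8 ± 13.8 and 309.6 ± 22.5 (SD, n = 3). COX8A was at 433.7 ± 34.9 and 466.8 ± 18.3 FPKM and COX7B at 28.1 ± 1.41 and 26.4 ± 0.138. None of these passed the test. COX6B2, the testis form of COX6B, had 0 to 4.08 counts per sample, UQCRHL, a close relative of UQCRH, had 2.02 counts in BR-shCON replicate 1 and 0 elsewhere, and ATP5MGL had at most 1 count. These 3 members were not tested.

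The median of the members differed between counts and FPKM. FPKM per CPM, taken relative to its mean over the 6 samples, had a median over members of 0.965, 1.003 and 0.994 in BR-shCON cells against 1.003, 1.012 and 1.017 in BR-shSPANXB1 cells. BR-shCON replicate 1 was the lowest. Genes with an implied length under 500 bases behaved alike (0.951 in that sample and 1.027 in BR-shSPANXB1 replicate 3), whereas for genes of 2000 bases or more the ratios stayed between 0.994 and 1.006. With limma on log2(FPKM + 0.1), which carries this scaling, the median of the members was 0 to 3 decimals, in place of -0.028 from counts, and the medians of complexes I and V were -0.014 and -0.011. These medians were thus higher on the FPKM scale, and so closer to 0. The medians of complexes II, III and IV were higher there as well, and further from 0. They were 0.045, 0.06 and 0.079, in place of 0.013, 0.034 and 0.04 from counts. NDUFB6 was lower on both scales.

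**Figure D4:**
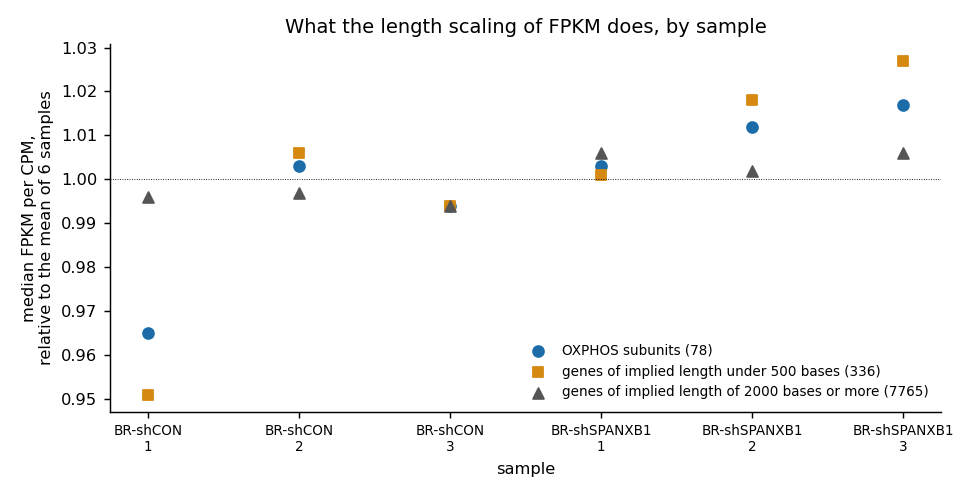
Median FPKM per CPM in each sample (x axis), relative to the mean of the 6 samples (y axis), for the subunit genes, for genes with an implied length under 500 bases and for genes of 2000 bases or more. The subunit genes follow the short genes, with BR-shCON replicate 1 lowest at 0.965, while the long genes stay between 0.994 and 1.006.

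Shares of called genes are given by implied length, without a test of the trend. Among genes with an implied length under 500 bases, which hold 40 of the members, 7.1% were called by edgeR and none of the members was (7 at an unadjusted p under 0.05, 0 with DESeq2, and ATP5IF1 with limma on log2(FPKM + 1)). The replicate block called 5 of these 40 short members, NDUFA13, NDUFA11, UQCRH, COX7C and ATP5MC1, beside 25.7% of all genes of any length. Of the 5, NDUFA13, UQCRH and COX7C were also called without BR-shCON replicate 3, a fit that called 12.8% of all genes. From 500 to 1000 bases the share was 9.76%, with 1 of 12 members called, from 1000 to 2000 bases 10.5%, with 1 of 13, and from 2000 to 4000 bases 14.5%, with 2 of 9. At 4000 bases or more it was 17%, with 0 of 4 members, also at an unadjusted p. Subtracting the trend of fold change on implied length gave a median of -0.03 over the members.

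Promoter sequences of RefSeq (GRCh38.p14, from 250 bases before to 50 after the start) were matched to 65 of the 78 tested members. They were searched on both strands for the letters of YY1 (AANATGGCG), NRF1 (GCGCATGC) and GABPA (CCGGAAGT), factors known for binding at genes of the respiratory chain. The YY1 letters stood in 16 member promoters (24.6%) and in 3.37% of all 27305 promoters, the NRF1 letters in 13 (20%) and 3.27%, and the GABPA letters in 10 (15.4%) and 4.44%. Over the 9483 promoters of genes tested here, these shares were 7.39%, 5.82% and 9.62%. No motif stood in 35 of the promoters, and matches of different motifs did not overlap. The YY1 letters began 9 to 42 bases after the start in 14 of the 16, and on the strand of the gene in 11 of these 14, while 56.2% of all promoters with these letters had them after the start. For each complex, the member with the YY1 letters and the smallest p is shown to make this placement visible, 5′ to 3′ on the strand of the gene, with the motif in capitals.
NDUFS3: gcatctgagtAACATGGCGgcggcggcgg
SDHB: gtcaggagccAAGATGGCGgcggtggtcg
UQCRC1: ctgcagctggAAGATGGCGgcgtccgtgg
COX6A1: gtccagatcaAAAATGGCGgtagttggtg
ATP5PF: aggcgaagaaAAGATGGCGgaggctgtgc

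These windows lie at chr11:47579079-47579107 (plus strand, NDUFS3), chr1:17054004-17054032 (minus, SDHB), chr3:48609605-48609633 (minus, UQCRC1), chr12:120438114-120438142 (plus, COX6A1) and chr21:25735093-25735121 (minus, ATP5PF). In the first 4 the motif follows the start, and in ATP5PF it precedes it. The letters that these lines share, ATGGCG with 1 varying letter before it, follow from the pattern searched for. A match of letters is a description of the window and not a site shown to be bound.

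Promoter windows of the 2 members with the smallest p, NDUFB6 (chr9:32573130-32573279, minus strand) and NDUFA8 (chr9:122159750-122159899, minus strand), run from 120 bases before to 30 after the start. They are shown because these genes moved in opposite directions, with the NRF1 letters of both strands, which overlap, in capitals.
NDUFB6: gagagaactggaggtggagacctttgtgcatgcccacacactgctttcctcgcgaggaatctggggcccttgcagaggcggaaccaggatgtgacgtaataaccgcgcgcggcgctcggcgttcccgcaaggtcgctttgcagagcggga
NDUFA8: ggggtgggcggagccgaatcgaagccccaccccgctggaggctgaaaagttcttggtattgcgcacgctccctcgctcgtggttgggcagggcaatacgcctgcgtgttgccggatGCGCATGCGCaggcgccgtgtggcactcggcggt

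The NDUFA8 window held the NRF1 letters and NDUFB6 held none of the 3 motifs. Members with the YY1 letters had a median log2 fold change of 0.002 and those without of -0.05, and edgeR called none of the 16, beside 13.8% of all genes tested. NDUFS3 and UQCRC1, which hold the YY1 letters, were called with the replicate block. For NRF1 the medians were -0.044 with and -0.028 without, and for GABPA 0.01 and -0.033. The factors themselves were measured at 30.3, 27.8 and 29.8 FPKM in BR-shCON cells against 26.46, 24.66 and 25.26 FPKM in BR-shSPANXB1 cells for YY1, which was lower (log2 fold change -0.22, adjusted p = 0.00066). NRF1 (0.041, adjusted p = 0.79) and GABPA (-0.089, 0.36) did not pass the test.

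Other mitochondrial gene lists had medians of -0.063 to 0.001, and single genes within them passed the test. Negative estimates made up 49.9% of all genes tested and 46.2% of TCA cycle genes. They made up 59.6% of assembly factors, 64.7% of electron carrier and coenzyme Q synthesis genes, 71.4% of mitochondrial ribosome genes and 92.9% of biogenesis regulators. Among 14 tested regulators of mitochondrial biogenesis, 4 were lower and none higher (28.6% called, beside 13.8% of all genes tested, median -0.063). Besides YY1 these were MYC (-0.23, adjusted p = 0.00024), TFAM (-0.18, 0.0038), which packages and transcribes mitochondrial DNA, and the coactivator gene PPARGC1B (-0.30, 0.015). The list was chosen with earlier results of these data known, and the paper had already reported lower YY1 in this RNA-seq. The share of 28.6% thus rests in part on a gene known to be lower. DESeq2 also called 4 lower, beside 8.92% of all genes, and limma on log2(FPKM + 0.1) 2, beside 7.57%. The replicate block called the same number, 4 (28.6%), beside 25.7% of all genes. MYC was at 101.9 ± 5.62 FPKM in BR-shCON cells against 87.6 ± 3.23 in BR-shSPANXB1 cells, and TFAM at 115.6 ± 12.4 and 103.9 ± 3.87. Of 52 tested assembly factor genes, whose products build the complexes, 1 was called (1.92%, beside 13.8% of all genes tested, median -0.032). It was UQCC3, which acts in complex III assembly, at -0.27 (0.044), and the next were NDUFAF4 at -0.21 (0.067, and 0.018 with the replicate block) and ECSIT at -0.13 (0.11, and 0.035 with the block). The count of 1 became 4 with the block (7.69%), beside 25.7% of all genes. It became 0 with DESeq2, with no filter and with a stricter filter (mean FPKM of 5 or more). It was also 0 when BR-shCON replicate 2, BR-shCON replicate 3, BR-shSPANXB1 replicate 1 or BR-shSPANXB1 replicate 3 was left out.

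The 77 tested genes of the mitochondrial ribosome, which makes the subunits encoded by mitochondrial DNA, had a median of -0.043. Of these, 1 was called higher and 5 lower (7.79%, beside 13.8% of all genes tested). MRPL35 (-0.23, adjusted p = 0.0016) and MRPL39 (-0.23, 0.022) were lower and MRPL33 (0.30, 0.015) was higher. The 5 lower calls of this list became 1 with DESeq2, 0 with limma on log2(FPKM + 0.1) and 10 with the replicate block. In either direction the block called 11 of the 77 (14.3%), beside 25.7% of all genes. The lower calls were 2 when BR-shCON replicate 1 was left out and 1 when BR-shSPANXB1 replicate 1 or 2 was. The higher call of the list was lost with DESeq2 and when BR-shCON replicate 3 or BR-shSPANXB1 replicate 2 was left out. Among 13 TCA cycle genes IDH3A, a subunit of isocitrate dehydrogenase, was called higher (0.16, 0.028), but no TCA cycle gene was called higher with DESeq2, in the 3 limma fits, or without BR-shCON replicate 1, BR-shCON replicate 2 or BR-shSPANXB1 replicate 2. SUCLG2 (0.091, 0.16) and MDH2 (-0.091, 0.2) did not pass, and did with the replicate block (0.039 and 0.029). Of 17 electron carrier and coenzyme Q synthesis genes edgeR called none (3 at an unadjusted p under 0.05), DESeq2 none and limma on log2(FPKM + 0.1) 1. ETFB (0.22, 0.069, and 0.0035 with the replicate block), COQ4 (0.20, 0.096, and 0.031 with the block) and CYCS, cytochrome c (-0.11, 0.097, and 0.0022 with the block), had the smallest values. The subunit genes NDUFAB1 (-0.068, 0.54) and COX7A2L (0.002, 0.98), whose symbols fall outside the pattern, did not pass either.

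**Figure D5:**
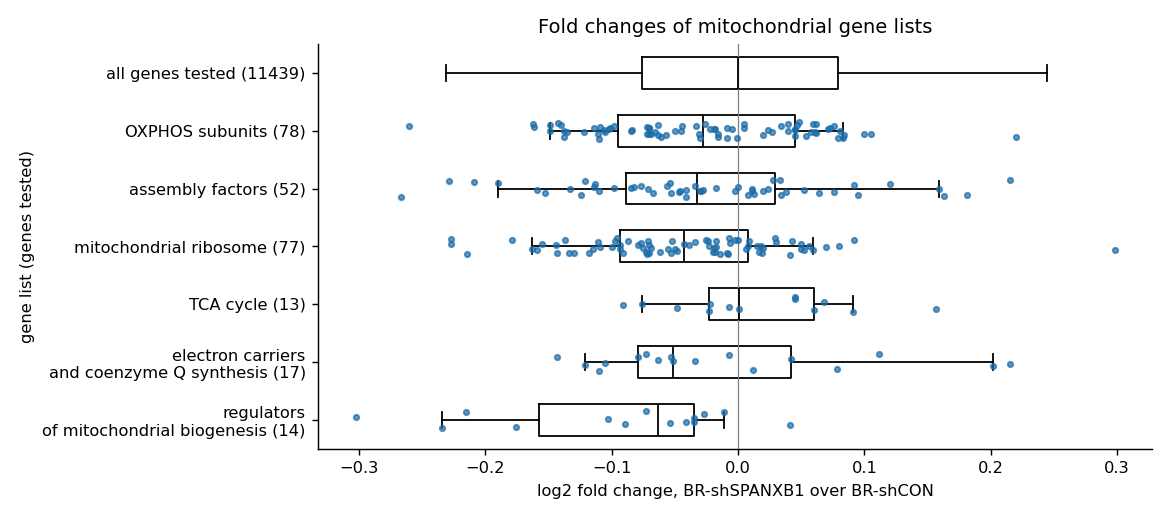
Log2 fold changes (BR-shSPANXB1 over BR-shCON, x axis) of all genes tested, the subunit genes and 5 other mitochondrial gene lists (y axis, genes tested in parentheses); boxes show quartiles, lines the 5th to 95th percentile, and points single genes. The medians of the subunit genes (-0.028) and of the regulators (-0.063) lie below 0 and inside the quartiles of all genes (-0.076 and 0.079). The subunit genes lie between -0.26 and 0.22.

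The subunit genes are spread over 22 chromosomes, with 11 of the 81 on chromosome 19, so members do not share a locus. By name, GENCODE v29 holds 159 pseudogenes of 45 members, up to 17 for 1 gene. Reads of such near-identical copies may be shared, and the levels of these members are uncertain to that extent.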

How the data were processed

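RNA-seq of 3 BR-shCON and 3 BR-shSPANXB1 samples was analysed from 1 table of 16570 genes. Per the labels, polyadenylated RNA was read from both ends, with no step that marks strand. The authors deposited estimated counts (14.5% not whole), not normalized, and FPKM values, scaled by transcript length and mapped fragments. The deposited TPM values (6 columns) were not used. Tools in the submitters' notes are Bowtie2 2.2.5 and HISAT2 2.0.4, with the build GRCh38.p12. Neither the counting program nor the annotation is given in the sources read here.

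Counts were rounded and tested with edgeR 4.0.16 (TMM, robust quasi-likelihood fit, Benjamini-Hochberg adjustment over the 11439 genes whose mean FPKM was 1 or more) in R 4.3.3. Two-sided exact permutation tests used log2(FPKM + 0.1). Samples held 16294462 to 16666167 counts. Precision rests on the 3 samples per group and, for members of few counts, on counting error: the SE of the log2 fold change was 0.098 for ATP5ME (163 to 205 counts) and 0.038 for ATP5F1B (9548 to 10362 counts). The study states for its experiments in general that replicates were separate batches of cells, and neither it nor the labels say so of these RNA-seq samples, whose spread may then be technical. No samples of a group agreed within sampling noise (chi-square over degrees of freedom 2.1 to 3.31). The fitting steps were tested on simulated data.

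Replicate numbers 1 to 3 occur in both groups. Deviations of same-numbered samples had correlations of 0.101, 0.16 and 0.155 over all genes tested, all above 0.1, which meets the rule for taking the numbers as pairs. The design had set the fit without the block as the reported one, and values with the block are given beside it where the call differs. Alternatives were DESeq2 1.42.0, RLE factors, no filter, a mean FPKM of at least 5, limma 3.58.1 on log2(FPKM + 0.1), on log2(FPKM + 1) and on quantile normalized values, the replicate block, a trend on implied length subtracted, and each sample left out.

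Members and lists were chosen with earlier results of these data known. All called members, up to 4 per complex, or else the gene of smallest p, were given by sample; tissue isoforms, the highest member of each complex, and 3 genes of each list with the smallest p were named, and SPANXB1, MMP1, YY1, NRF1 and GABPA. Further block-called and catalytic members were named after their values were seen. Genes were placed with GENCODE v29 (GRCh38) and promoters taken from RefSeq (GRCh38.p14). Plots used Python 3.11.15 with matplotlib 3.10.9. Not every single gene is reported here.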

Additional observations from a re-analysis of the deposited data

How the results depend on the processing

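Fits on FPKM, the replicate block and single samples changed the count of called subunit genes, and the cause was not tested. The 1 higher call became 0 with limma on log2(FPKM + 0.1), 2 with the replicate block and 0 to 1 when single samples were left out (0 without BR-shCON replicate 1 or BR-shSPANXB1 replicate 2). The 3 lower calls became 1 with DESeq2 and with limma on log2(FPKM + 0.1), log2(FPKM + 1) or quantile normalized values, 11 with the replicate block, and 1 to 7 when single samples were left out. They were 7 without BR-shCON replicate 3 and 1 without BR-shCON replicate 2, BR-shSPANXB1 replicate 2 or BR-shSPANXB1 replicate 3. The higher gene was ATP5IF1 in place of NDUFA8 in limma on log2(FPKM + 1), and NDUFB10 in place of NDUFA8 without BR-shSPANXB1 replicate 3. Over all genes, DESeq2 called 1020, limma 866 to 894, the block 2935 and the fits that left out a sample 1041 to 1466, against 1579.

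In limma on log2(FPKM + 0.1), log2(FPKM + 1) and quantile normalized values, the median log2 fold change of the members was 0, 0 and -0.01, of complex I -0.014, -0.014 and -0.018, of complex II 0.045, 0.045 and 0.041, of complex IV 0.079, 0.079 and 0.07, and of complex V -0.011, -0.011 and -0.02. Leaving out single samples gave -0.016 to 0.034 for complex II and -0.001 to 0.045 for complex IV. NRF1 ranged from -0.017 to 0.098 when single samples were left out and was negative (adjusted p = 0.94) without BR-shSPANXB1 replicate 2. Limits are the 3 samples per group, the single knockdown construct, and lengths behind FPKM that differ by sample.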
